A study of Homo sapiens with 12 samples.

Results

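The genes described here are 10 components and targets of the Notch pathway: the receptors NOTCH1, NOTCH2 and NOTCH3, the ligands JAG1, JAG2 and DLL1, the receptor-modifying enzyme LFNG and the target genes HES1, HES4 and HEY1. They were chosen by symbol, and all 10 had a row among the 28395 gene rows of the count table. All 10 passed the filter on low counts, which kept 13469 genes. With TGF-β1, LFNG rose most and NOTCH1 and HES4 fell. With dexamethasone, NOTCH1 and NOTCH2 rose and HES1 fell.

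Notch receptors are membrane proteins that meet Jagged or Delta-like ligands on a neighbouring cell. Ligand binding exposes the receptor to cleavage by ADAM proteases and then by γ-secretase, and the released intracellular domain joins the DNA-binding protein RBPJ to switch on genes of the HES and HEY families, which encode transcriptional repressors. Fringe enzymes such as LFNG add sugars to the receptors and change which ligands they answer to. In the airway epithelium, Notch signalling is known for directing basal cells towards secretory rather than ciliated fates.

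RNA was sequenced from BEAS-2B cells, an immortalised line derived from human bronchial epithelium, so that all values come from 1 line. The 12 libraries formed 4 groups of 3. All cells first spent 24 h in serum-free and steroid-free medium. Controls then had no treatment, another group had 40 pM TGF-β1 for 24 h, another had 30 nM dexamethasone for 4 h, and the last, called "both" below, had TGF-β1 for 24 h before dexamethasone for 4 h. TGF-β1 is a growth factor that induces matrix genes, and dexamethasone is a synthetic glucocorticoid. The labels describe the libraries of a group as biological triplicates without saying whether they were separate cultures, so p-values measure the spread between these libraries. A vehicle for the control is not given in the sources used here, and the growth protocol names A549 cells where all other labels name BEAS-2B.

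Totals ran from 5861591 to 7008203 counts in replicates 1 and 2 and from 17968961 to 19727235 in replicate 3 of every group, so that replicate 3 carries the smallest counting error. The targets of the treatments moved with the labels: SMAD7, an inhibitory SMAD and TGF-β1 target, had 13.6 ± 2.85 CPM in control and 110.7 ± 20.0 with TGF-β1, and FKBP5, a glucocorticoid receptor target, had 160.9 ± 17.3 in control and 2410 ± 147 with dexamethasone. CPM are read counts scaled to a common library total after TMM normalisation. Airway markers were present: all 10 genes of a bronchial epithelial list passed the filter, and KRT5, a basal keratin, had 502.5 ± 140 CPM in control. With TGF-β1, KRT5 had 602.0 ± 270 CPM, and other keratins of the list went both ways. KRT15 went from 13.99 ± 3.1 CPM in control to 1.455 ± 0.402 with TGF-β1. KRT18 went from 358.7 ± 21.5 to 148.5 ± 7.55 and KRT19 from 186.3 ± 16.2 to 60.35 ± 2.75. In contrast, KRT14 went from 47.05 ± 32.5 to 209.7 ± 114 and KRT17 from 513.2 ± 161 to 1648 ± 441. The secretory markers SCGB3A2 and BPIFA1 had no read in any library, and SCGB1A1 had 1 read in control and none in the other groups. Of the 6 secretory markers, MUC5B alone was tested, with 5.06 ± 3.71 CPM in control, 1.15 ± 0.748 with TGF-β1, 2.44 ± 1.76 with dexamethasone and 0.533 ± 0.316 with both. MUC5AC, which was not tested, had 42 reads in control and 6, 18 and 5 in the same order. Of the control reads, 32 came from replicate 2, against 4 and 6 in replicates 1 and 3. Of 5 ciliated markers, CCDC78 alone was tested. It had 7.29 ± 0.387 CPM in control, 6.10 ± 0.483 with TGF-β1, 10.26 ± 2.20 with dexamethasone and 7.35 ± 1.15 with both. The summed level of the 5 was 7.438 to 8.945 CPM in control and 10.56 to 13.75 with dexamethasone. FOXJ1 had 2 to 5 reads a group and DNAH5 18 to 42. The summed level of 7 markers of alveolar type 2 cells or abundant in A549 cells, 2 of them tested and none at 0 throughout, was 12.3 to 38.2 CPM in control, mostly from ALDH3A1, and 1.35 to 5.26 with TGF-β1. Among them, NKX2-1 had 2 to 7 reads a group and AKR1B10 1.60 ± 0.441 CPM in control and 7.78 ± 1.04 with dexamethasone. The summed level of 7 fibroblast markers, of which 4 were tested and none was at 0 throughout, was 727 to 1053 CPM in control and 10160 to 12620 with TGF-β1, mostly from COL1A1. Of the others, DCN had 2 to 3 reads a group, LUM 0 to 3 and PDGFRA 1 to 29. From control to TGF-β1, COL1A2 went from 6.69 ± 1.71 to 213.6 ± 27.3 CPM and PDGFRB from 37.6 ± 4.12 to 189.4 ± 10.4. THY1 went from 290.6 ± 66.5 to 414.9 ± 107. The summed level of 5 endothelial markers, 3 of them tested and none at 0 throughout, was 2.58 to 4.81 CPM in control and 165 to 340 with dexamethasone, where KDR made up most of it. CDH5 went from 1.781 ± 0.474 CPM in control to 0.7055 ± 0.439 with dexamethasone, and PECAM1 from 0.7438 ± 0.577 to 1.114 ± 0.71. VWF had 12 reads in each of these groups, and TIE1 had 6 and 15. The part of any of these lists in the values below was not tested. In bulk RNA, a change in the number of cells that express a gene and a change in RNA per cell cannot be told apart.

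**Figure D1:**
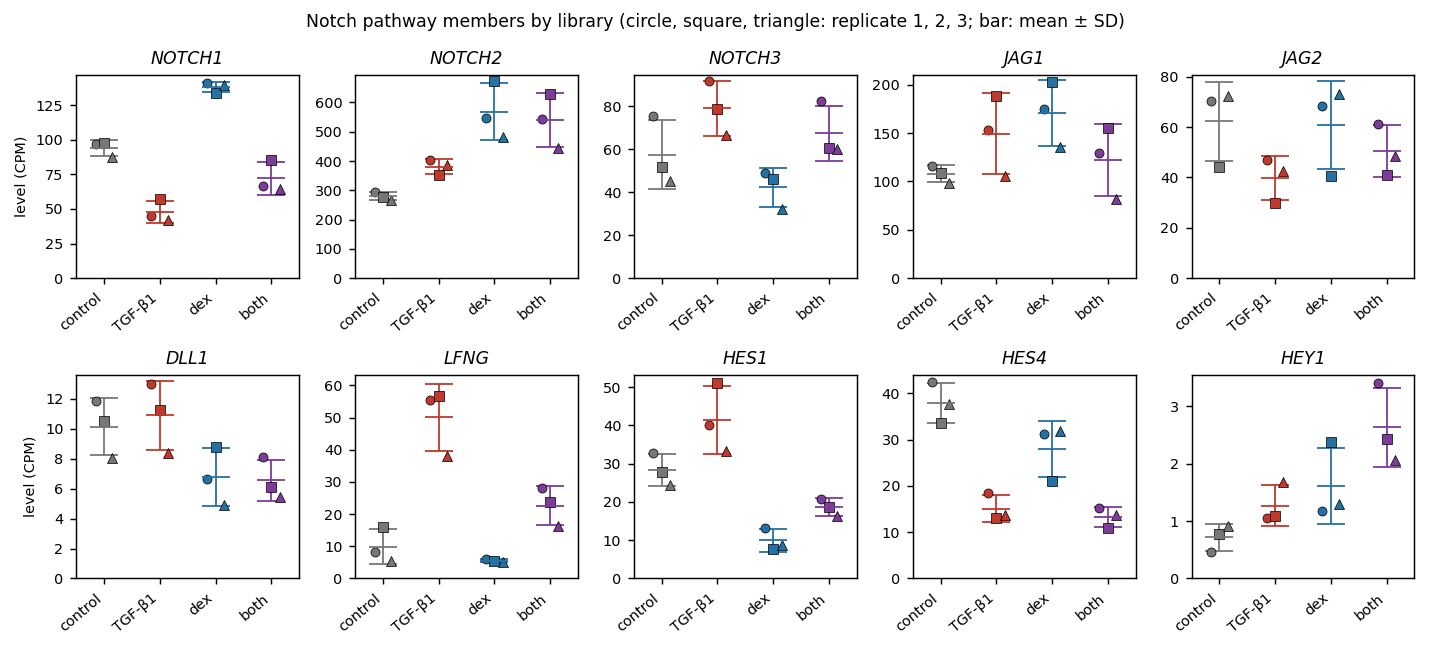
Level in CPM (linear axis from 0) of each of the 10 genes in the 12 libraries, by group. Symbols are single libraries (circle, square and triangle for replicates 1, 2 and 3), and bars are mean ± SD. NOTCH1 was lower in every library with TGF-β1 than in any library without it, LFNG was higher, and HES1 was lower with dexamethasone than in the matching group without it.

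By build GRCh38.p14, NOTCH1 (Entrez gene 4851) lies on chromosome 9 from 136494433 to 136546048, NOTCH2 (4853) on chromosome 1 from 119911553 to 120069662, and NOTCH3 (4854) on chromosome 19 from 15159038 to 15200995. JAG1 (182) lies on chromosome 20 from 10637684 to 10673999, JAG2 (3714) on chromosome 14 from 105140995 to 105168776, and DLL1 (28514) on chromosome 6 from 170282206 to 170291078. LFNG (3955) lies on chromosome 7 from 2512529 to 2529177, HES1 (3280) on chromosome 3 from 194136148 to 194138732, and HES4 (57801) on chromosome 1 from 998964 to 1000097. HEY1 (23462) is on chromosome 8. All are annotated as protein-coding, and reads were counted per gene, so that isoforms are not separated. DLL1 overlaps FAM120B, a protein-coding gene with 4209 reads over the 12 libraries against 992 for DLL1. The library kit does not keep strand and the counting of shared reads is not given in the sources used here, so DLL1 values are uncertain. NOTCH2 has near-identical partial copies: 3 rows named NOTCH2NL together held 0.958% to 4.05% as many reads as NOTCH2 in a library, and reads that match both could be split.

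Levels between genes were compared per kilobase of annotated exon (GENCODE release 29, all protein-coding transcripts joined). In control, HES4 stood highest at 36.5 ± 4.22 CPM per kb (SD, n = 3). HES1 (18.0 ± 2.63), NOTCH2 (17.4 ± 0.821) and JAG1 (17.4 ± 1.41) followed and did not differ beyond their spread. JAG2 (10.7 ± 2.68) and NOTCH1 (10.1 ± 0.614) also lay within each other's spread. NOTCH3 (6.53 ± 1.82) lay below NOTCH1, while its spread overlapped that of JAG2. DLL1 (3.15 ± 0.593) and LFNG (3.09 ± 1.71) overlapped, and HEY1 was lowest at 0.26 ± 0.0861. NOTCH2 was therefore the most abundant of the 3 receptors per length in untreated cells, and JAG1 the most abundant of the 3 ligands.

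In TGF-β1 against control, 3 of the 10 genes rose and 2 fell, where 32.8% of all 13469 genes tested passed in either direction (16.2% rose and 16.6% fell; edgeR quasi-likelihood test, adjusted p under 0.05). The median log2 fold change was 0.46 over the 10 genes and -0.01 over all genes tested. LFNG, NOTCH2 and HES1 rose, and HES4 and NOTCH1 fell. With the replicate number as a block, 5 rose and 3 fell, beside 50.0% of all genes. The count was 3, with 1 higher, without control replicate 3, without TGF-β1 replicate 1, or without replicate 1 of every group.

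In dexamethasone against control, 2 rose and 1 fell, where 10.4% of all genes passed (5.54% rose and 4.9% fell). NOTCH1 and NOTCH2 rose and HES1 fell. With the block, 3 rose and 4 fell, beside 22.2% of all genes. In both against TGF-β1, the same contrast within TGF-β1-treated cells, 2 rose (NOTCH1 and NOTCH2) and 2 fell (LFNG and HES1), where 8.11% of all genes passed (5.09% rose and 3.01% fell). With the block, 3 rose and 3 fell, beside 17.5% of all genes. The count without the block was 2 without replicate 1 or 2 of the TGF-β1 group, or without replicate 1 or 2 of the group given both, and 1 without replicate 1 of every group. Over all genes, 841 to 1097 passed in the fits without 1 library, against 1092 with all libraries. In the fits without a replicate number, 457 to 1075 passed. The median log2 fold change of the 10 genes was -0.23 for dexamethasone without TGF-β1 and -0.19 with it, against 0.00 and -0.01 over all genes.

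In both against dexamethasone, the TGF-β1 contrast in dexamethasone-treated cells, 3 rose (LFNG, HES1 and NOTCH3) and 2 fell (HES4 and NOTCH1), where 32.3% of all genes passed (15.9% rose and 16.4% fell). With the block, 3 rose and 4 fell, beside 49.9% of all genes. In both against control, 3 rose (HEY1, LFNG and NOTCH2) and 3 fell (HES4, HES1 and NOTCH1), where 36.6% passed (18.5% rose and 18.1% fell). With the block, 4 rose and 5 fell, beside 53.1% of all genes. The falls of NOTCH1 and HES1 there passed in 9 of 15 fits with libraries left out. Both were lost without control replicate 1 or 2 or replicate 3 of the group given both, NOTCH1 also without replicate 1 of that group and HES1 also without its replicate 2 (adjusted p up to 0.0967 and 0.11 among these). The LFNG rise was lost without control replicate 3 (0.87, adjusted p = 0.0509) or replicate 1 of the group given both (1.08, adjusted p = 0.0573). Without replicate 1 of every group, the count of 6 in both against control was 2. Over all genes, 2772 to 4778 passed in the 3 fits without a replicate number, against 4925 with all libraries. These contrasts share libraries, so their agreement for a gene is not separate evidence.

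**Figure D2:**
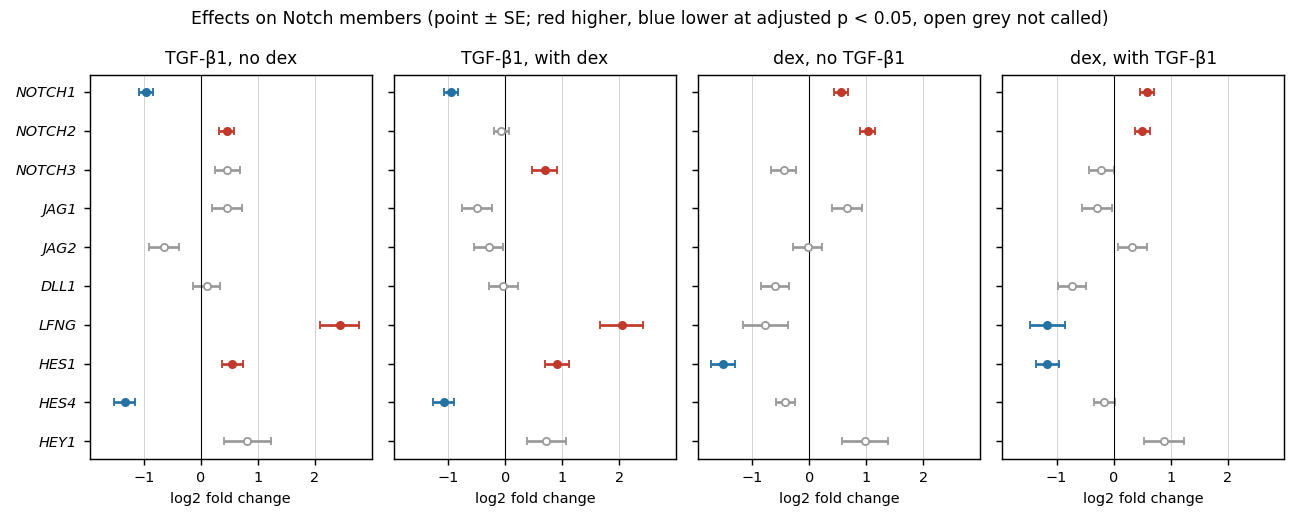
Log2 fold change (point) ± SE of each gene in the 4 main contrasts, from 1 edgeR fit of 12 libraries. Red is higher and blue lower at adjusted p under 0.05, and open grey points did not pass. LFNG and HES1 lie to the right of 0 in both TGF-β1 panels and HES1 far to the left in both dexamethasone panels.

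Of the receptors, NOTCH1 had 96.9, 97.8 and 87.5 CPM in the control libraries and 44.9, 57.1 and 42.1 with TGF-β1. The groups did not overlap, and the fall was 1.97-fold (log2 fold change -0.97, SE 0.12, adjusted p = 3.63e-05). With dexamethasone the libraries had 141.2, 134.0 and 139.4 CPM, all above control (0.56, SE 0.12, adjusted p = 0.00612). The group given both had 66.4, 85.5 and 64.2 CPM, between TGF-β1 alone and control, without overlap with either. Dexamethasone thus raised NOTCH1 in TGF-β1-treated cells as well (0.59, SE 0.12, adjusted p = 0.00756), and TGF-β1 lowered it in dexamethasone-treated cells (-0.95, SE 0.12, adjusted p = 4.09e-05). The interaction, which is the change in the dexamethasone effect when TGF-β1 was present, was 0.03 for NOTCH1 (SE 0.17, adjusted p = 1.0). NOTCH1 passed in both TGF-β1 contrasts in all 15 fits with libraries left out, and in 13 of 15 in each dexamethasone contrast, the exceptions being those without replicate 1 or replicate 3 of every group.

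NOTCH2 had 294.1, 276.1 and 268.4 CPM in control, 402.5, 353.1 and 386.8 with TGF-β1, 546.4, 675.0 and 483.0 with dexamethasone, and 543.3, 630.2 and 445.8 with both. All libraries with dexamethasone were above all libraries without it. Dexamethasone raised NOTCH2 by 2.03-fold without TGF-β1 (log2 fold change 1.02, SE 0.13, adjusted p = 9.62e-05) and by 1.42-fold with it (0.50, SE 0.13, adjusted p = 0.0274). TGF-β1 raised it in the absence of dexamethasone (0.45, SE 0.13, adjusted p = 0.0175), a call lost with scaling by library size alone (0.24, adjusted p = 0.166) and in 5 of 15 fits with libraries left out, among them those without control replicate 2 or 3 or TGF-β1 replicate 1 (adjusted p from 0.0533 to 0.0746). The dexamethasone rise in TGF-β1-treated cells held in 8 of 15, and was lost without any TGF-β1 library or without replicate 1 or 2 of the group given both (0.38 to 0.54, adjusted p from 0.0556 to 0.125). With dexamethasone present, the TGF-β1 difference was -0.07 (SE 0.13, adjusted p = 0.708). The test of the difference between these effects gave -0.52 (SE 0.18, unadjusted p = 0.0136, adjusted p = 0.366).

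NOTCH3 had 75.5, 51.8 and 45.1 CPM in control, 91.8, 78.6 and 66.7 with TGF-β1, 48.8, 46.1 and 32.1 with dexamethasone, and 82.3, 60.4 and 60.0 with both. Replicate 1 was highest and replicate 3 lowest in each group. NOTCH3 was higher in both than in dexamethasone alone (0.69, SE 0.22, adjusted p = 0.0326), with no overlap. That call was lost with scaling by library size alone (0.48, adjusted p = 0.0801), with no filter on low counts (adjusted p = 0.0892) and in 4 of 15 fits with libraries left out, among them those without dexamethasone replicate 2 or 3 or replicate 1 of the group given both (0.50 to 0.77, adjusted p from 0.0518 to 0.14). TGF-β1 against control gave 0.46 (adjusted p = 0.127, and 5.02e-05 with the block), and dexamethasone against control gave -0.45 (adjusted p = 0.298, and 0.000543 with the block).

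The balance between receptors was read within each library, where scaling cancels. The ratio of NOTCH2 to NOTCH1 in CPM per kb was 1.76, 1.63 and 1.78 in control and 5.19, 3.58 and 5.32 with TGF-β1. It was 2.24, 2.92 and 2.01 with dexamethasone and 4.73, 4.27 and 4.02 with both. All 6 libraries with TGF-β1 were above all 6 without it, and every dexamethasone library was above every control library. The ratios are given as values, and no test of them was made.

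**Figure D3:**
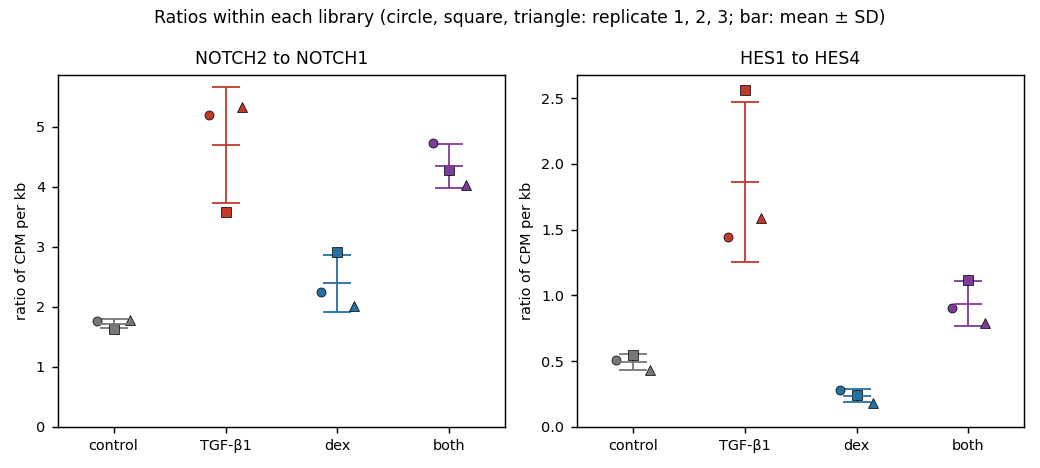
Ratio of NOTCH2 to NOTCH1 (left) and of HES1 to HES4 (right) in CPM per kb within each library, by group, on linear axes from 0. Symbols are libraries and bars are mean ± SD of 3. Both ratios are higher in the 6 libraries with TGF-β1 than in the 6 without it.

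Of the ligands, none passed the test without the block in any of the 5 pairwise contrasts. With the block, JAG1, JAG2 and DLL1 each passed in some of them. JAG1, the main Jagged ligand of many epithelia, had 116.0, 109.3 and 98.7 CPM in control, 153.7, 188.9 and 105.7 with TGF-β1, 174.8, 202.4 and 135.3 with dexamethasone, and 129.3, 155.8 and 81.9 with both. Replicate 3 was lowest in every group. Every dexamethasone library was above every control library (log2 fold change 0.66, SE 0.26, adjusted p = 0.157, and 0.00878 with the block; DESeq2 adjusted p = 0.0458). TGF-β1 against control gave 0.46 (SE 0.26, adjusted p = 0.198, and 0.0313 with the block).

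In the group given both, JAG1 did not show the sum of these differences. Between libraries of the same number, dexamethasone moved JAG1 by 0.45 to 0.89 on the log2 scale without TGF-β1 and by -0.37 to -0.25 with it. TGF-β1 moved it by 0.10 to 0.79 without dexamethasone and by -0.72 to -0.38 with it. Every pair thus had the opposite sign in the other background. Both sets of signs come from the same 12 libraries and are not separate evidence. How many of all genes show such signs was not counted. The interaction was -0.95 (SE 0.36, unadjusted p = 0.0239, adjusted p = 0.50), and -0.92 with the block (adjusted p = 0.0266), where 0.884% of all genes passed without the block (0.483% higher and 0.401% lower) and 4.78% with it. Both against control was 0.17 (SE 0.26, adjusted p = 0.644).

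**Figure D4:**
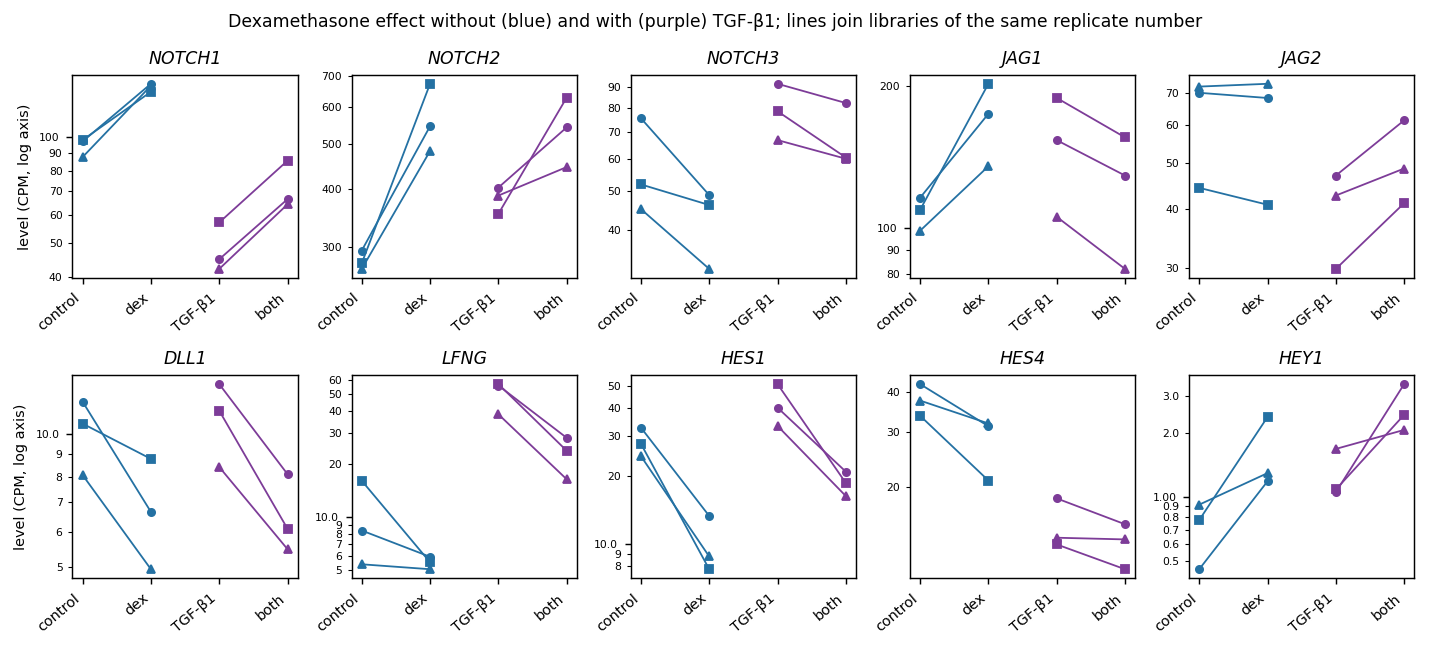
Level in CPM (log axis, range set per gene) in control and dexamethasone (blue) and in TGF-β1 and both (purple). Lines join libraries with the same replicate number. JAG1 lines rise in blue and fall in purple, and HES1 lines fall in both colours.

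JAG2 had 70.2, 44.2 and 72.4 CPM in control and 47.0, 29.8 and 42.6 with TGF-β1, a difference of -0.65 (SE 0.26, adjusted p = 0.0794) that passed with the block (adjusted p = 6.85e-06), with scaling by library size alone (adjusted p = 0.015) and in DESeq2 (adjusted p = 0.0271). Replicate 2 was lowest in each group. With dexamethasone it had 68.5, 40.8 and 73.3 CPM, a difference of -0.03 from control (SE 0.25, adjusted p = 0.982). With both it had 61.4, 41.1 and 48.6 CPM. Against TGF-β1 alone this was 0.33 (adjusted p = 0.649, and 0.0212 with the block), and against dexamethasone alone -0.29 (adjusted p = 0.442, and 0.00795 with the block).

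DLL1, a Delta-like ligand, was low. It had 11.8, 10.6 and 8.07 CPM in control, 13.0, 11.3 and 8.41 with TGF-β1, 6.65, 8.78 and 4.93 with dexamethasone, and 8.10, 6.09 and 5.48 with both. Dexamethasone against control gave -0.60 (SE 0.25, adjusted p = 0.168, and 0.00463 with the block). In TGF-β1-treated cells the difference was -0.73 (SE 0.25, adjusted p = 0.11, and 0.00253 with the block), and those groups did not overlap. TGF-β1 against control was 0.10 (SE 0.24, adjusted p = 0.789). The overlap of DLL1 with FAM120B applies to these values.

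LFNG, the Fringe glycosyltransferase, had the largest difference of the 10 genes in both TGF-β1 contrasts. It had 8.34, 15.99 and 5.36 CPM in control and 55.6, 56.6 and 38.1 with TGF-β1. The lowest TGF-β1 library was above the highest control library, and the rise was 5.39-fold (log2 fold change 2.43, SE 0.34, adjusted p = 0.000218). With dexamethasone the libraries had 5.91, 5.50 and 5.03 CPM, a difference of -0.77 from control (SE 0.39, adjusted p = 0.322). With both they had 28.0, 23.7 and 16.3 CPM. TGF-β1 thus raised LFNG 4.11-fold in dexamethasone-treated cells (2.04, SE 0.37, adjusted p = 0.00139), a call lost without replicate 1 of every group (1.93, adjusted p = 0.0514). Dexamethasone lowered LFNG in TGF-β1-treated cells (-1.16, SE 0.31, adjusted p = 0.0445), without overlap and lower in each of the 3 pairs of the same number. That fall was near the threshold: it passed in 5 of 15 fits with libraries left out, over which it ran from -1.35 to -0.94 and, of those without a single library, held only without control replicate 2 or 3 or TGF-β1 replicate 3, and not when no filter was applied (-1.17, adjusted p = 0.145). The rise with TGF-β1 alone passed in all 15 (2.02 to 2.94).

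Of the target genes, HES1 and HES4 encode related basic helix-loop-helix repressors. Their promoters are shown because the genes moved in opposite directions with TGF-β1 and both windows hold the RBPJ motif. With TGF-β1 alone, the HES1 rise passed in 8 of 15 fits with libraries left out and the HES4 fall in all 15. Whether RBPJ acts on either gene in these cells was not tested. The windows are the 250 bases before the annotated start, 5′ to 3′ on the gene's strand, from RefSeq (GRCh38.p14). The HES1 window is chr3:194135898-194136147 on the plus strand and the HES4 window is chr1:1000098-1000347 on the minus strand. Capitals mark the RBPJ motif GTGGGAA.
HES1: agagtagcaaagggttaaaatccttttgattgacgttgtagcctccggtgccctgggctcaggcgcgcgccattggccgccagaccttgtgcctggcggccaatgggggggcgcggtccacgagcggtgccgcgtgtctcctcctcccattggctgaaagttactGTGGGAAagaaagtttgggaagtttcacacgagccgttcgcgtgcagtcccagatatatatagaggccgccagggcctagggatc
HES4: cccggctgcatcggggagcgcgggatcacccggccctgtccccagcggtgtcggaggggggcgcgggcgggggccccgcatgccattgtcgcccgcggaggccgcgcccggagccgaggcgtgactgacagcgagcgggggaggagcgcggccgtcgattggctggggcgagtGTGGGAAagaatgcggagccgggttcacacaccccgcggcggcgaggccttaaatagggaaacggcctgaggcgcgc
GTGGGAA, searched on both strands, starts 85 bases before the HES1 start and 77 bases before the HES4 start. The longest run that the promoters share is 12 bases, TGTGGGAAAGAA, which contains the motif and occurs in 8 of 35116 RefSeq promoter windows of 300 bases. GTGGGAA was present in 6.25% of those windows. The shorter core TGGGAA, which overlaps it, was present in 24.0%. It occurred a further time in HES1, 70 bases before the start, and not in HES4.

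Promoter windows of 300 bases, 250 before and 50 after the start, were matched for 8 of the 10 genes. Apart from HES1 and HES4, none of the others held GTGGGAA. The N box CACNAG, a binding sequence of HES repressors, had 4 matches in the HES1 window, 2 in that of NOTCH1, 1 each in those of NOTCH2 and NOTCH3 and in 1 of the LFNG windows, and none in those of HES4, JAG1 and JAG2, against at least 1 match in 38.0% of all windows. The SMAD-binding sequence CAGAC matched in the windows of HES1, JAG1 and LFNG, against 45.3% of all windows. A consensus of the glucocorticoid response element had no match in any of them, against 0.39% of all windows. Such matches are descriptions of letters in these windows.

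HES1 had 32.8, 27.8 and 24.5 CPM in control and 13.3, 7.74 and 8.81 with dexamethasone. The groups did not overlap, and the fall was 2.87-fold (log2 fold change -1.52, SE 0.21, adjusted p = 0.000172). With TGF-β1 the libraries had 40.1, 51.0 and 33.3 CPM, all above control (0.55, SE 0.19, adjusted p = 0.0377). With both they had 20.9, 18.6 and 16.3 CPM, below control and above dexamethasone alone, without overlap. Dexamethasone therefore lowered HES1 in TGF-β1-treated cells (-1.16, SE 0.20, adjusted p = 0.00138), and TGF-β1 raised it in dexamethasone-treated cells (0.91, SE 0.21, adjusted p = 0.00487). Both against control was -0.61 (SE 0.20, adjusted p = 0.0262). The interaction was 0.36 (SE 0.28, adjusted p = 1.0).

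The firmness of the HES1 calls differed between treatments. The dexamethasone falls and the rise in dexamethasone-treated cells passed in all 15 fits with libraries left out. The rise with TGF-β1 alone passed in 8 of 15 (0.37 to 0.70), failing without control replicate 2 or 3, TGF-β1 replicate 1 or 2, or any replicate number (adjusted p up to 0.195), and was lost with scaling by library size alone (0.35, adjusted p = 0.162). Under that scaling the median of all genes in TGF-β1 against control moved from -0.009 to -0.217.

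HES4 had 42.5, 33.7 and 37.6 CPM in control and 18.4, 13.1 and 13.8 with TGF-β1, a 2.54-fold fall without overlap (log2 fold change -1.34, SE 0.18, adjusted p = 4.99e-05). With dexamethasone it had 31.2, 21.0 and 31.8 CPM, all below control, and the difference was -0.42 (SE 0.17, adjusted p = 0.148, and 0.00231 with the block). With both it had 15.2, 10.96 and 13.6 CPM. TGF-β1 lowered HES4 in dexamethasone-treated cells (-1.08, SE 0.18, adjusted p = 0.000389), whereas dexamethasone in TGF-β1-treated cells gave -0.16 (SE 0.19, adjusted p = 0.803).

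The ratio of HES1 to HES4 in CPM per kb was 0.508, 0.544 and 0.429 in control, 1.44, 2.56 and 1.59 with TGF-β1, 0.281, 0.243 and 0.182 with dexamethasone, and 0.904, 1.12 and 0.789 with both. No group overlapped another, in the order dexamethasone, control, both and TGF-β1. HES4 was thus the more abundant of the pair per length in all libraries without TGF-β1, and HES1 in those with TGF-β1 alone.

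HEY1, a repressor of the related HEY family, was at the limit of detection, with 27 reads over the control libraries, 43 with TGF-β1, 51 with dexamethasone and 69 with both. Its levels were 0.455, 0.776 and 0.918 CPM in control and 3.40, 2.44 and 2.07 with both. These did not overlap, and HEY1 rose 3.25-fold in both against control (1.70, SE 0.38, adjusted p = 0.00293), a call lost without replicate 1 of every group (1.35, adjusted p = 0.0707). Neither agent alone passed: TGF-β1 gave 0.81 (SE 0.41, adjusted p = 0.146) and dexamethasone 0.98 (SE 0.40, adjusted p = 0.16). Each of these groups lay above control in every library, but how many of all genes do so was not counted.

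No gene of the 10 passed the edgeR test of the interaction without the block, where 2 (NOTCH2 and JAG1) had an unadjusted p under 0.05. DESeq2 called 0, and the fit with the block called JAG1. Over all genes, 0.884% passed the edgeR test without the block and 4.78% with it.

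The rest of the pathway was taken from a list of 49 genes, of which 48 were matched and 40 passed the filter on low counts. In TGF-β1 against control, 9 of the 40 rose and 8 fell, beside 32.8% of all genes (15 and 10 with the block, beside 50.0%). HEYL, another HEY-family target gene, rose from 1.48 ± 0.676 to 13.4 ± 6.44 CPM (3.13, SE 0.53, adjusted p = 0.000835), a call lost only without replicate 3 of every group among the 15 fits with libraries left out. FURIN, the protease that matures Notch receptors and also cleaves precursors of TGF-β, rose from 89.7 ± 7.51 to 240.7 ± 27.2 CPM (1.42, SE 0.11), and NUMBL, a relative of the Notch inhibitor NUMB, by 0.89 (SE 0.09). The largest falls were in NEURL1, a ubiquitin ligase of the Neuralized family (-1.52, SE 0.40), the corepressor TLE2 (-1.11, SE 0.19) and the Deltex gene DTX4 (-1.03, SE 0.15). NEURL1 had 63 reads in control and 19 with TGF-β1, and its call was lost without TGF-β1 replicate 3 and without replicate 3 of every group.

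In dexamethasone against control, 5 of the 40 rose and 5 fell, beside 10.4% of all genes (8 and 11 with the block, beside 22.2%). NEURL1B, a Neuralized ligase that acts on Notch ligands, rose from 12.4 ± 2.77 to 53.3 ± 5.00 CPM (2.08, SE 0.18, adjusted p = 1.78e-06). DLK2, a non-canonical ligand, rose by 1.21 (SE 0.17) and the corepressor TLE1 by 1.02 (SE 0.22), a call lost with no filter on low counts and without replicate 1 of every group. The RBPJ coactivator MAML2 (-1.01, SE 0.18), the corepressor TLE3 (-0.96, SE 0.14) and DTX2 (-0.87, SE 0.12) fell, the MAML2 call being lost without replicate 3 of every group. In TGF-β1-treated cells, 5 rose and 3 fell with dexamethasone, beside 8.11% of all genes (9 and 7 with the block, beside 17.5%). NOTCH4, the remaining receptor, had 66 reads with TGF-β1 and 429 with both (2.71, SE 0.34, adjusted p = 9.96e-05), and NEURL1B (2.04, SE 0.17) and DLK2 (1.05, SE 0.18) rose. NRARP, a target gene and feedback inhibitor of Notch, fell (-1.08, SE 0.29, adjusted p = 0.0346), as did DTX4 (-0.70, SE 0.16) and DTX2 (-0.52, SE 0.13). These 3 were the only falls, and none of the 40 genes fell without TGF-β1 replicate 2, without replicate 1 or 3 of the group given both, or without replicate 1 or 3 of every group. Over all genes, 280 to 394 fell in the fits without 1 library, against 406 with all libraries. In the fits without a replicate number, 121 to 393 fell. NRARP passed in 8 of 15 fits with libraries left out, DTX4 in 8 and DTX2 in 10, and DLK2 was lost only without replicate 1 of every group.

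In dexamethasone-treated cells, 11 rose and 6 fell with TGF-β1, beside 32.3% of all genes (14 and 9 with the block, beside 49.9%). HEYL rose from 1.06 ± 0.523 to 26.4 ± 12.4 CPM (4.68, SE 0.54, adjusted p = 5.32e-05), NOTCH4 from 2.50 ± 1.07 to 13.6 ± 4.64 CPM (2.56, SE 0.34) and FURIN by 1.63 (SE 0.11). NEURL1 (-1.83, SE 0.39), DTX4 (-1.10, SE 0.16) and the HES-family gene HES2 (-1.01, SE 0.36, adjusted p = 0.048) fell. The NEURL1 call was lost without replicate 1 of every group. The HES2 call was lost with RLE factors and held in 5 of 15 fits with libraries left out. RBPJ itself had 71.4 ± 4.03 CPM in control, 85.5 ± 12.4 with TGF-β1, 62.7 ± 3.82 with dexamethasone and 71.2 ± 8.69 with both, and passed in none of the 5 pairwise contrasts without the block (adjusted p from 0.0862 to 0.999). With the block it was higher with TGF-β1 (0.27, adjusted p = 0.000959, and 0.19, adjusted p = 0.0154, in dexamethasone-treated cells) and lower with dexamethasone (-0.19, adjusted p = 0.0348, and -0.27, adjusted p = 0.00366, in TGF-β1-treated cells). Genes of the HES and HEY families moved in both directions with TGF-β1: HES1 and HEYL rose while HES4 and HES6 fell, HES6 by -0.79 (SE 0.17, adjusted p = 0.00271). Whether HES2 and HES6, listed here with the targets, answer to Notch in these cells was not tested.

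**Figure D5:**
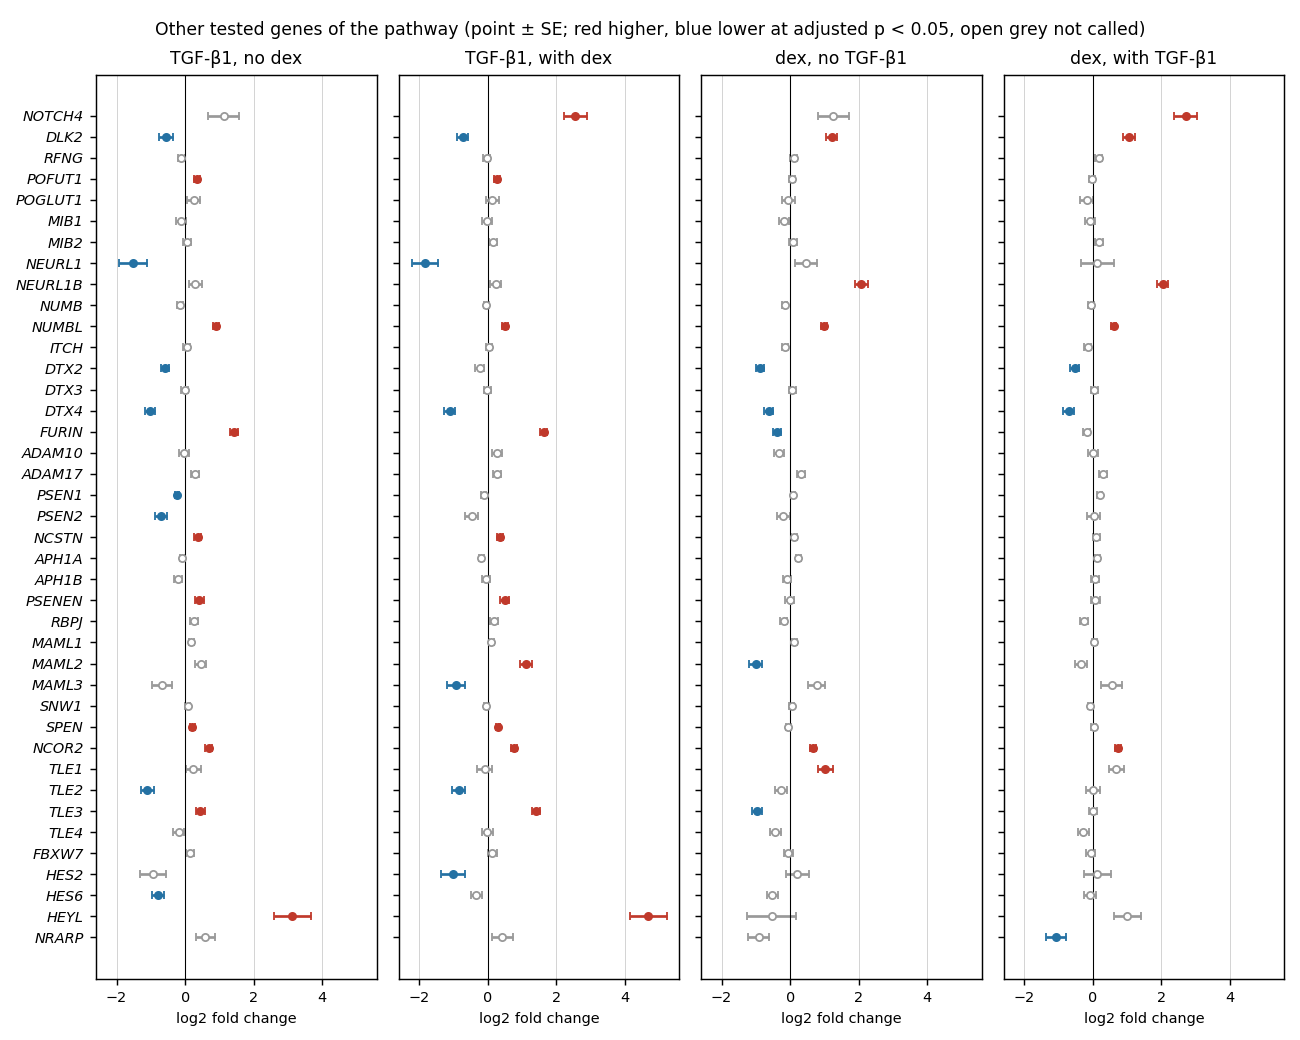
Log2 fold change ± SE of the 40 other tested pathway genes in the 4 main contrasts, ordered by role from receptor and ligands at the top to genes listed as targets at the bottom. Red is higher and blue lower at adjusted p under 0.05, and open grey points did not pass. HEYL is the farthest right in both TGF-β1 panels.

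For the 6 genes that passed in a main contrast, the genes with the most similar profile over the 12 libraries were found by the root mean square difference of centred log2 CPM among 12443 genes. TPST2 was nearest to HES1, at 0.18 on the log2 scale, for a gene whose own values spanned 2.69. ADAM15 was nearest to NOTCH1 (0.133, span 1.74), IMPDH1 to NOTCH2 (0.122, span 1.33), TSPAN9 to NOTCH3 (0.156, span 1.51), FRMD6 to LFNG (0.285, span 3.44) and TMEM205 to HES4 (0.187, span 1.93). None of the 3 nearest to any of these genes was another of the 10. The other genes among the 3 nearest to HES1 were LINC01444, at 0.279, and IER2, at 0.293.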

How the data were processed

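RNA from 12 BEAS-2B libraries was sequenced after poly(A) selection, from 500 ng of total RNA per library with an integrity number above 8, per the labels' protocols. The values deposited by the authors are raw read counts per Entrez gene, made with featureCounts on hg38 per the submitters' processing notes. No source used here gives the aligner, annotation or strand setting. Of 18 count columns, 12 match a label and the other 6 were not used. Symbols and positions came from RefSeq (GRCh38.p14), which matched 27745 of 28395 rows (99.943% of counts).

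Genes were kept by filterByExpr (minimum count 10). All libraries were fitted in 1 model with TMM scaling and the robust quasi-likelihood test of edgeR 4.0.16 under R 4.3.3, with Benjamini-Hochberg adjustment over 13469 genes and a threshold of 0.05. CPM use TMM-scaled totals of the genes kept. Each SE is the size of the log2 fold change over the square root of its F. Alternatives were library size alone, RLE factors, no filter, DESeq2 1.42.0, a replicate block, and 15 fits with libraries left out (12 without 1 library, 3 without a replicate number in every group). After removal of group means, libraries of the same number correlated at 0.25 to 0.541 across genes in all 18 pairs, over the limit of 0.1, so the numbers were taken to pair libraries. The main fit left this pairing out, so its SE and adjusted p include differences between replicate numbers. The replicate block, which takes the pairing in, was run as an alternative only. How many of all genes had groups without overlap was not counted, so statements of overlap describe the libraries and are no test. All 10 genes are described. Of the pathway list, up to 3 rises and 3 falls per main contrast are named. Similar profiles were sought among genes whose log2 CPM (prior count 2) averaged 1 or more. Members and lists were chosen with earlier results of these data known. HES6 and RBPJ were named after their values were seen. Tables and figures used Python 3.11.15, pandas 2.3.3 and matplotlib 3.10.9.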

Additional observations from a re-analysis of the deposited data

Results flagged for a closer look

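JAG1 was flagged by the signs of its pairs: libraries of the same number moved up with dexamethasone without TGF-β1 and down with it, and likewise for TGF-β1 without and with dexamethasone. The interaction was -0.95 (edgeR adjusted p = 0.50), so the difference did not pass in the main fit. It passed with the replicate block (-0.92, edgeR adjusted p = 0.0266). The signs of the pairs were the rule for the flag, so they are not further support.

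NOTCH2 was higher with TGF-β1 in the 3 pairs without dexamethasone (0.35 to 0.53 on the log2 scale) and lower in the 3 pairs with it (-0.12 to -0.01). The interaction was -0.52 (edgeR adjusted p = 0.366, and 0.201 with the block), so the difference did not pass.

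TLE3, a corepressor in the pathway list, was the only one of the 10 genes and the 40 other pathway genes whose interaction passed without the replicate block: 0.97 (SE 0.19, edgeR adjusted p = 0.0269, and 0.00558 with the block). With the block, JAG1, NUMBL (-0.38, adjusted p = 0.017), ADAM10 (0.32, adjusted p = 0.0287), MAML2 (0.68, adjusted p = 0.00379) and HEYL (1.58, adjusted p = 0.00357) passed as well. Over all genes, the interaction passed in 0.884% without the block and in 4.78% with it. TLE3 had 47.3 ± 1.59 CPM in control, 24.3 ± 4.34 with dexamethasone, 64.3 ± 7.60 with TGF-β1 and 64.3 ± 8.70 with both. Dexamethasone thus lowered TLE3 without TGF-β1, and the difference with it was 0.01 (adjusted p = 0.991). With 1 library left out, the call was lost without any control library, TGF-β1 replicate 1 or 3, dexamethasone replicate 3, or replicate 1 or 3 of the group given both.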

How the results depend on the processing

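With the replicate block, the number of the 10 genes called was 8 in place of 5 for TGF-β1 against control, 7 in place of 3 for dexamethasone against control and 1 in place of 0 for the interaction. It was 6 in place of 4 in both against TGF-β1, 7 in place of 5 in both against dexamethasone and 9 in place of 6 in both against control. With libraries left out, the counts ran from 3 to 6 for TGF-β1 and from 2 to 4 for dexamethasone alone, from 1 to 4 for dexamethasone and from 4 to 6 for TGF-β1 on top of the other agent, from 2 to 7 for both against control, and were 0 for the interaction. Calls over all genes varied in these fits too. They ran from 2410 to 4465 for TGF-β1, 693 to 1529 for dexamethasone alone and 2772 to 5042 for both against control. On top of the other agent they ran from 457 to 1097 for dexamethasone and from 2202 to 4420 for TGF-β1. For the interaction they ran from 0 to 171. Of 60 single-gene contrasts under the other scalings, filter, tool and block, no called value changed sign, 4 lost a call and 15 gained one under at least 1 of these settings. For the other pathway genes the block gave 19 in place of 10 calls with dexamethasone, 16 in place of 8 in both against TGF-β1 and 5 in place of 1 for the interaction. Over all genes the block gave 6741 in place of 4416 calls with TGF-β1, 2996 in place of 1406 with dexamethasone, 2353 in place of 1092 in both against TGF-β1, 6727 in place of 4352 in both against dexamethasone and 644 in place of 119 for the interaction, where DESeq2 gave 215. Scaling by library size alone left 1 of the 3 rises with TGF-β1. Depth limits HEY1, with 27 to 69 reads a group.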

Other observations

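Pathway genes that did not pass the filter on low counts are given as reads over the 3 libraries of a group, with no test. DLL4, an endothelial Delta-like ligand, had 4 reads in control, 4 with TGF-β1, 12 with dexamethasone and 20 with both. HES7, an oscillating target gene of somite formation, had 26, 8, 61 and 19 in the same order. DLL3 had 26, 37, 29 and 31, and the Fringe gene MFNG had 35, 21, 21 and 13. HES5, a Notch target best known from neural progenitors, had 10, 9, 8 and 8, and HEY2 had 3 in each group. The non-canonical ligand DLK1 had 0, 2, 0 and 0, and the Deltex gene DTX1 had 8, 8, 6 and 8.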
